A study of Mus musculus with 36 samples.

Results

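Female and male primordial germ cells (PGCs), the fetal precursors of eggs and sperm, were compared in control mouse fetuses at E16.5 by bulk RNA-seq. The comparison used 6 of the 36 libraries of the series, 3 of E16.5 female (E16.5F) and 3 of E16.5 male (E16.5M) PGCs. Its members were the 21175 autosomal genes with a mean of at least 1 TPM (transcripts relative to the library total, scaled for transcript length) in either group, out of 57126 gene IDs of which 52764 were autosomal. All 6 libraries were labelled wild type (WT) and control group, that is, from dams not made hyperglycemic. Mothers of a strain not given in the sources used here were mated with *Oct4-EGFP* males, gonads were sexed by *Sry* PCR or by their shape, and EGFP-positive cells of many pooled fetuses were sorted for each sample. The reporter gate therefore selected cells with *Oct4* (*Pou5f1*) reporter activity, and each sample was a pool, not an animal. IUHG (intrauterine hyperglycemia) libraries of both sexes at E16.5, from WT fetuses of dams given streptozotocin (STZ, which destroys insulin-producing cells) early in pregnancy, and control libraries of both sexes at E13.5 and of unseparated sexes at E12.5 were read beside them, 3 in each group.

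In the fetal ovary, germ cells leave the mitotic cycle and enter meiosis, in which homologous chromosomes are broken, paired along the synaptonemal complex and recombined. In the fetal testis, germ cells instead stop in mitotic arrest as prospermatogonia, silence transposons with PIWI-interacting RNAs (piRNAs) and lay down new DNA methylation. E16.5 falls in meiotic prophase I in the female and in the arrest in the male, so the comparison asks how far the transcriptomes of the sexes had parted at that stage.

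The labels fitted the libraries. *Eif2s3y*, a Y-linked gene, was listed at 0 in all female libraries and 90.4, 74.3 and 69.8 TPM in the male libraries, and *Xist* was above 1 TPM in the female libraries alone. The summed level of 9 pan-germ genes was 5379 to 5955 TPM in female and 5277 to 5719 TPM in male PGCs, and *Ddx4*, the germ cell RNA helicase, stood at 368, 359.7 and 362 TPM in female and 302, 289 and 273 TPM in male PGCs. Libraries of a sex were close to each other, with a Pearson r across genes of 0.964 to 0.968 in female and 0.980 to 0.984 in male PGCs, against 0.732 to 0.741 between the sexes. Aligned bases, read from the ratio of coverage to FPKM, were 5.10 to 5.19 gigabases in female and 3.95 to 4.73 gigabases in male libraries. The shallower male libraries nevertheless held more genes at 1 TPM or above (19720 to 19835, against 16864 to 17096 in female libraries). Read counts were not used here, so the counting error of a single gene is unknown.

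Markers of the gonad soma also differed, and were measured in every library. The summed level of 14 Sertoli cell markers was 59.3 to 90.4 TPM in female and 602 to 648 TPM in male PGCs. *Cst9* and *Hsd17b3* were listed at 0 in all female libraries, *Amh* and *Sox9* were below 6 TPM in all 6 libraries, and the male sum was carried by *Clu* (184, 183 and 189 TPM), *Defb36* (119, 122 and 133 TPM), *Defb19* (91.1, 86.4 and 96.9 TPM), *Ptgds* (87.8, 91.7 and 85.4 TPM) and *Cst9* (79.2, 65.5 and 85.2 TPM). Interstitial and Leydig markers (12 genes) summed to 31.1 to 79.6 TPM in female and 80.4 to 215 TPM in male PGCs, with male library 1 highest. Blood and immune markers (11 genes) summed to 13.6 to 111 TPM in female PGCs, where library 2 stood highest with 66.4 TPM of *Lyz2*, and to 256 to 579 TPM in male PGCs, mostly globins. Pregranulosa markers (32.0 to 57.2 against 37.3 to 43.4 TPM) and endothelial markers (17.8 to 27.8 against 18.9 to 21.2 TPM) overlapped between the sexes. In a sorted bulk sample, fewer cells of a type and less RNA per cell cannot be told apart, and the part of these cells in the male-high results below was not tested. The near-identical globin copies, whose reads the authors kept only where they mapped uniquely, are uncertain as single genes.

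Differential expression was tested with limma on log2(TPM + 1), and differentially expressed genes (DEGs) had an adjusted p (Benjamini-Hochberg) under 0.01 and an absolute log2 fold change over 1. Fold changes are female minus male throughout, and p-values measure the spread between these pooled samples. Of the 21175 genes, 4732 (22.3%) were higher in female and 5991 (28.3%) were higher in male PGCs, together 50.6%. The libraries of the sexes did not overlap in 15846 genes (74.8%). The median gene stood at a log2 fold change of -0.13, with quartiles of -1.24 and 0.97. Median-of-ratios scaling moved that median to -0.35 (3872 higher in female and 6880 in male PGCs) and quantile normalization to 0.01 (5315 and 4673), so the direction of a gene is relative to the scale, and small differences in either direction rest on it. Genes higher in female PGCs had a median level of 25.9 TPM there, and 73.8% of them reached 10 TPM. Genes higher in male PGCs had a median of 7.27 TPM, and 42.8% of them reached 10 TPM. Of the male-high DEGs, 3508 reached 1 TPM in male PGCs alone and so could pass the filter in that sex only, against 831 of the female-high DEGs in female PGCs. Where 1 TPM was required in both sexes, an alternative chosen after the data were seen, 3914 genes were higher in female and 2514 in male PGCs, so the larger number of male-high genes rested on genes below 1 TPM in female PGCs. Of the tested cell type markers, 9 of 14 Sertoli, 5 of 12 interstitial, 4 of 8 blood and immune, 1 of 5 endothelial and none of 9 pregranulosa genes were higher in male PGCs, and 1, 1, 1, 1 and 3 were higher in female PGCs. Without female library 2 and male library 1, the libraries with the highest blood marker sums of their sex, 3855 genes were higher in female and 4496 in male PGCs, also chosen after the data were seen. Of the 9 pan-germ genes 2 were higher in female and 4 in male PGCs.

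**Figure D1:**
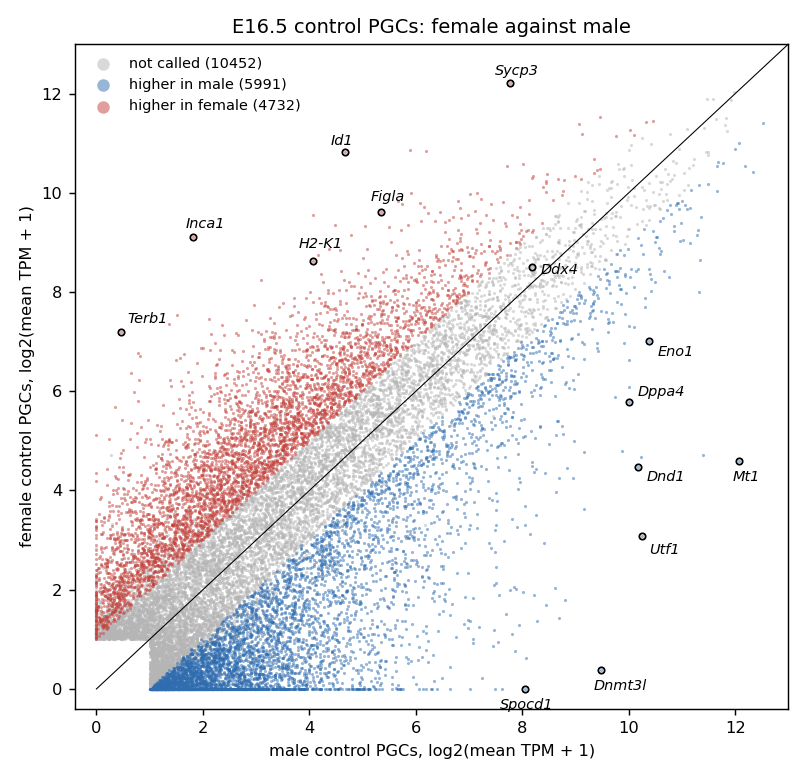
Mean TPM of each of the 21175 tested genes on a log2(mean TPM + 1) scale, with male control PGCs on the horizontal and female control PGCs on the vertical axis (3 libraries each). Red points are the 4732 DEGs higher in female, blue points the 5991 higher in male and grey points those not called, the diagonal marks equal levels, and many blue points lie along the bottom at levels near 0 in female PGCs.

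The largest female-high difference was in *Inca1*, an inhibitor of cyclin-dependent kinase 2, which stood at 602, 569 and 491 TPM in female and 2.40, 2.05 and 3.11 TPM in male PGCs (log2 fold change 7.31, SE 0.14, adjusted p = 8.37e-08). *Terb1*, which joins telomeres to the nuclear envelope in meiosis, stood at 133, 139 and 161 TPM in female and 0.558, 0.310 and 0.240 TPM in male PGCs (log2 fold change 6.73, SE 0.16, adjusted p = 1.38e-07). *Id1*, a dominant-negative helix-loop-helix factor and classical target of BMP signaling, stood at 1836, 1829 and 1738 TPM in female and 22.5, 27.5 and 23.1 TPM in male PGCs (log2 fold change 6.16, SE 0.089, adjusted p = 4.44e-08). In all 3 genes the lowest female library was above 100 TPM and no male library reached 30 TPM. The other female-high genes of the 10 largest differences among DEGs of at least 10 TPM were *Gm13269* (6.05), the LIM-domain gene *Fhl4* (6.01), the histone methylation reader *Zcwpw2* (6.00), the DNA polymerase gene *Poln* (5.89), *Tsbp1* (5.72), *Gm17232* (5.50) and *Id3* (5.49), all as log2 fold changes. Their means lay between 74.1 TPM (*Gm17232*) and 747 TPM (*Id3*) in female PGCs.

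The largest male-high difference was in *Dnmt3l*, the catalytically inactive partner that guides de novo DNA methyltransferases, which stood at 0.902, 0 and 0 TPM in female and 693, 747 and 703 TPM in male PGCs (log2 fold change -9.17, SE 0.25, adjusted p = 1.91e-07). *Spocd1*, which links nuclear piRNAs to DNA methylation, was listed at 0 in the 3 female libraries and at 272, 269 and 253 TPM in the male libraries (adjusted p = 4.44e-08). *Pcp4*, a calmodulin regulator, was listed at 0 in the 3 female libraries and at 180.1, 208 and 196 TPM in the male libraries (adjusted p = 7.08e-08). *Cd2*, an adhesion receptor best known from T cells, was listed at 0 in the 3 female libraries and at 198, 178 and 161 TPM in the male libraries (adjusted p = 8.01e-08). Male libraries thus lay above 160 TPM in these 4 genes while no female library reached 1 TPM. *Mt1*, a metal-binding metallothionein, stood at 27.2, 27.2 and 15.1 TPM in female and 3542, 4624 and 4809 TPM in male PGCs (log2 fold change -7.52, SE 0.23, adjusted p = 2.56e-07). Its neighbour *Mt2*, looked up after these values were seen, had 2456, 2798 and 2856 TPM in male and 24.9, 31.1 and 19.7 TPM in female PGCs. Both metallothioneins stood above 1000 TPM in every male library. *Fam183b*, a gene of motile cilia, stood at 0, 1.65 and 0 against 269, 261 and 273 TPM. *Utf1*, a chromatin factor of pluripotent and early spermatogonial cells, was at 10.9, 6.44 and 5.25 against 1184, 1237 and 1209 TPM, and *Afp*, the fetal serum protein gene, at 1.64, 0.141 and 0.318 against 233, 225 and 236 TPM. *Rrad*, a small GTPase of the Ras family, was at 1.30, 0.570 and 5.57 against 457, 437 and 437 TPM, and *1700054O05Rik* at 1.43, 1.82 and 1.82 against 404, 418 and 414 TPM. For genes at or near 0 in female PGCs the fitted fold change depends on the added 1 TPM.

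Promoters are shown because CpG content differed in median between the DEGs of the sexes (described below), with exceptions on both sides. They belong to genes among the largest differences and to 2 synaptonemal complex genes. No promoter was found by symbol for *Id1*, *Spocd1*, *Cd2*, *Rrad* and *1700054O05Rik*, which were left out. Each sequence is the 250 bases before the RefSeq start on GRCm38.p6, 5′ to 3′ on the coding strand, with CG dinucleotides in capitals. Genes were matched to RefSeq by symbol, since the gene positions in the files belong to another build. The female-high examples are *Inca1* (chr11:70700156-70700405, minus strand), *Terb1* (chr8:104509888-104510137, minus strand), *Gm13269* (chr2:14767023-14767272, minus strand, the first of 3 starts listed), *Sycp1* (chr3:102936101-102936350, minus strand) and *Sycp3* (chr10:88459337-88459586, plus strand). The male-high examples are *Dnmt3l* (chr10:78042037-78042286, plus strand, the first of 3 starts listed), *Pcp4* (chr16:96467356-96467605, plus strand), *Fam183b* (chr11:58801961-58802210, minus strand), *Mt1* (chr8:94178839-94179088, plus strand) and *Utf1* (chr7:139943606-139943855, plus strand).
Inca1: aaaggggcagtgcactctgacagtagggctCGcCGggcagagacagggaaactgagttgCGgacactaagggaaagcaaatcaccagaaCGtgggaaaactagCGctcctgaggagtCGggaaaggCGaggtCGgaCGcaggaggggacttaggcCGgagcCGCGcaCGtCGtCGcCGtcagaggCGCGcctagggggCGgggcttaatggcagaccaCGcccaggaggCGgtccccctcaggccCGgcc
Terb1: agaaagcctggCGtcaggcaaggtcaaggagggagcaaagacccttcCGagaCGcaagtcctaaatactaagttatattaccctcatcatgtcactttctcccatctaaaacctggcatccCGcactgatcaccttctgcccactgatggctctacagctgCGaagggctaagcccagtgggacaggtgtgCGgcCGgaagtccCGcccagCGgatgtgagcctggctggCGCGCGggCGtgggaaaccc
Gm13269: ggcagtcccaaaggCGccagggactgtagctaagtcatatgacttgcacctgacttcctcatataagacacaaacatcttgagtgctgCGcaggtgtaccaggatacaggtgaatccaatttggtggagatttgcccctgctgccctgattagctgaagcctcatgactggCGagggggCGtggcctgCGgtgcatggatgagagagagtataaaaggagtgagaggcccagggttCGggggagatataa
Sycp1: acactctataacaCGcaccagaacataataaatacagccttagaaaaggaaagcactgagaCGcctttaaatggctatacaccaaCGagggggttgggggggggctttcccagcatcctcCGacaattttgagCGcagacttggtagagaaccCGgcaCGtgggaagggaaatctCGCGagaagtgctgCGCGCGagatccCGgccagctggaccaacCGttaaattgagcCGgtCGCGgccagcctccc
Sycp3: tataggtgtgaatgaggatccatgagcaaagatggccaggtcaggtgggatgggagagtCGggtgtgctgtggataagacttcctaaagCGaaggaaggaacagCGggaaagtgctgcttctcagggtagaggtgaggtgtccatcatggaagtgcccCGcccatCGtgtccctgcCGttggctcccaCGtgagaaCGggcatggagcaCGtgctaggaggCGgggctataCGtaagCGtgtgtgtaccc
Dnmt3l: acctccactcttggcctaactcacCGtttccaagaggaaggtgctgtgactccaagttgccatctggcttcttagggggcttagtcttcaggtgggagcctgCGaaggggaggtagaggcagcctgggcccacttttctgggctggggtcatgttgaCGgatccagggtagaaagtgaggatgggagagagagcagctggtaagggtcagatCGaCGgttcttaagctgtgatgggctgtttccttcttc
Pcp4: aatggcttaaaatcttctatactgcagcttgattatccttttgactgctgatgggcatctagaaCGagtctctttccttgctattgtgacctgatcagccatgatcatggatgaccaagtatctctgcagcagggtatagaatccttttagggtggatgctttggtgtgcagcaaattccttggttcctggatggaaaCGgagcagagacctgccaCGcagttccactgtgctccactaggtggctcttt
Fam183b: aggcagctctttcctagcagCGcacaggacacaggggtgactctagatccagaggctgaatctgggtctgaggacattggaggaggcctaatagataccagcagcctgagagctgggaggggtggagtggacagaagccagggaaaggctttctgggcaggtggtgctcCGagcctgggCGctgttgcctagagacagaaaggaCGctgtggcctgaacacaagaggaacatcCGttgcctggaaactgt
Mt1: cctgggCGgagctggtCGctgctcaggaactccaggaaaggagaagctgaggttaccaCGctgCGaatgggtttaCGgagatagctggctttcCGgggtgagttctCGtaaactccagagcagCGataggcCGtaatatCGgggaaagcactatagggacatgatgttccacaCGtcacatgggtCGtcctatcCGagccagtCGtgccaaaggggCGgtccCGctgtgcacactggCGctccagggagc
Utf1: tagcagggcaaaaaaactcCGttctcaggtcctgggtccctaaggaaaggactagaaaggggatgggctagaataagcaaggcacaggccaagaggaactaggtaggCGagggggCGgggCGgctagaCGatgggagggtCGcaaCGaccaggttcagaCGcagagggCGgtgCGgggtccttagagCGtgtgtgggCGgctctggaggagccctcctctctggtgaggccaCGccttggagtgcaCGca
The female-high promoters held 22 (*Inca1*), 13 (*Terb1*), 6 (*Gm13269*), 17 (*Sycp1*) and 12 (*Sycp3*) CG dinucleotides. The male-high promoters held 5 (*Dnmt3l*), 3 (*Pcp4*), 5 (*Fam183b*), 17 (*Mt1*) and 14 (*Utf1*). The counts of the sexes overlapped, with *Gm13269* low among the female-high and *Mt1* and *Utf1* high among the male-high examples.

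Genes that build the synaptonemal complex and the chromosome axis were higher in female PGCs almost throughout, with 11 of 12 members called and none higher in male PGCs. Their median log2 fold change was 3.12, and 22.3% of all genes were female-high and 28.3% male-high. *Sycp1*, the transverse filament, stood at 1869, 1776 and 1919 TPM in female and 60.4, 56.6 and 58.5 TPM in male PGCs (log2 fold change 4.96, SE 0.061, adjusted p = 2.38e-08). *Sycp3*, of the lateral element, stood at 4982, 4630.3 and 4694 TPM in female and 227, 216 and 205 TPM in male PGCs (log2 fold change 4.46, SE 0.056, adjusted p = 2.38e-08), and had the highest level of the list. *Syce3* and *Syce2*, of the central element, had log2 fold changes of 4.09 and 3.55, and the axis gene *Hormad2* had 4.20. The libraries of the sexes did not overlap in any of these 5 genes, beside 74.8% of all genes without overlap. Here and in the lists below, the members named were picked by the size of their difference, which favors such separation. Male PGCs were not without these transcripts, since *Sycp3* was above 200 TPM and *Tex12* at 396, 322 and 320.0 TPM in all male libraries. The member not called was *Sycp2l*, at 0.549, 0.496 and 2.02 TPM in female and 0.619, 1.20 and 0.803 TPM in male PGCs.

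Meiotic cohesins and the proteins that tether telomeres to the nuclear envelope showed 8 of 10 members higher in female and 1 in male PGCs. Their median log2 fold change was 3.42, and the shares of all genes were 22.3% and 28.3%. After *Terb1*, the largest differences were in its partners *Majin* (150.3, 156 and 173 against 4.55, 3.11 and 4.69 TPM in female and male PGCs, log2 fold change 4.99) and *Terb2* (62.8, 69.0 and 72.4 against 0.966, 1.53 and 2.38 TPM, 4.75). *Spdya*, an activator of the telomere-bound kinase CDK2, had 234, 189 and 238 against 12.0, 9.02 and 10.2 TPM (4.28). *Smc1b*, the meiotic cohesin ring subunit, had 857, 868 and 917 against 54.8, 52.0 and 50.9 TPM (4.04). These 5 telomere and cohesin genes stood at most at 55 TPM in any male library. The member in the other direction was *Rec8*, the meiotic kleisin, which stood at 9.32, 2.42 and 1.27 TPM in female and 19.7, 24.2 and 21.7 TPM in male PGCs (log2 fold change -2.40, SE 0.50, adjusted p = 0.00303), so all male libraries exceeded all female libraries. The *Rec8* call was lost without female library 2 or any male library (log2 fold changes -2.24, -2.47, -2.33 and -2.41). *Stag3*, another meiotic cohesin, was at 220.5, 199.6 and 241 against 117, 131 and 119.9 TPM and below the fold threshold (0.84).

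Genes of double-strand break formation were higher in female PGCs in 8 of 10 members, and none was higher in male PGCs. The median log2 fold change was 2.55, and the shares of all genes were 22.3% and 28.3%. *Prdm9*, which marks the sites of breaks, stood at 67.5, 75.1 and 80.5 TPM in female and 1.64, 1.67 and 1.51 TPM in male PGCs (log2 fold change 4.85, SE 0.14, adjusted p = 2.39e-07). *Spo11*, which cuts the DNA, stood at 273, 294 and 309 TPM in female and 26.5, 23.5 and 27.1 TPM in male PGCs (log2 fold change 3.46, SE 0.094, adjusted p = 1.94e-07). Its partner subunit *Gm960* had 41.8, 38.6 and 46.1 against 4.26, 5.76 and 4.63 TPM (2.88), and the break regulators *Mei1* and *Iho1* had log2 fold changes of 2.64 and 2.62. None of these 5 genes, picked by fold change, overlapped between the sexes, beside 74.8% of all genes without overlap. The members not called were *Rec114*, at 173, 143 and 136 against 165.1, 183 and 186 TPM, and *Zcwpw1*, a reader of the marks made by PRDM9, at 735, 746 and 725 against 371, 404 and 402 TPM (0.91).

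Strand exchange and crossover genes gave the widest set, with 21 of 23 members higher in female PGCs and none higher in male PGCs. These counts stand beside 22.3% and 28.3% of all genes, and the median log2 fold change was 2.73. *Meiob*, a single-strand binding protein of meiosis, stood at 305, 282 and 317 TPM in female and 8.86, 8.14 and 5.70 TPM in male PGCs (log2 fold change 5.16, SE 0.15, adjusted p = 2.54e-07). *Dmc1*, the meiotic recombinase, stood at 135.4, 147 and 153 TPM in female and 8.21, 8.64 and 9.64 TPM in male PGCs (log2 fold change 3.89, SE 0.11, adjusted p = 2.19e-07). *Mcmdc2* (4.03), the helicase *Hfm1* (3.97) and the mismatch repair relative *Msh5* (3.69) completed the 5 largest log2 fold changes. All 5 were below 10 TPM in every male library and above 28 TPM in every female library. The 2 members not called were *Mnd1*, at 135.1, 162 and 136 against 183, 161 and 171 TPM, and *Prr19*, at 148, 149 and 119.8 against 202, 205 and 209 TPM. The X-linked *Tex11* lay outside the autosomal comparison, with 228, 234 and 249 TPM in female and 19.0, 18.3 and 16.52 TPM in male PGCs.

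Regulators of meiotic entry were mixed, with 8 of 12 members higher in female and 2 in male PGCs (median log2 fold change 1.72). The shares of all genes were 22.3% and 28.3%. *Meioc*, which keeps meiotic transcripts stable, stood at 100.3, 116 and 122 TPM in female and 5.40, 2.96 and 3.66 TPM in male PGCs (log2 fold change 4.53, SE 0.19, adjusted p = 8.57e-07). *Meiosin*, the partner of STRA8, stood at 219.6, 232 and 253 TPM in female and 14.7, 13.0 and 14.9 TPM in male PGCs (log2 fold change 3.95, SE 0.10, adjusted p = 1.63e-07), and *Zfp541*, a chromatin factor of meiotic prophase, had a log2 fold change of 3.52. *Stra8*, the retinoic acid-induced gatekeeper of meiosis, stood at 161, 123 and 149.8 TPM in female and 32.4, 30.0 and 43.1 TPM in male PGCs (log2 fold change 2.02, SE 0.16, adjusted p = 1.64e-05). At E13.5 the female level of *Stra8* had been 1936, 1718 and 1841 TPM, so the E16.5 female libraries were all below all E13.5 female libraries. Members higher in male PGCs were *Rec8* and *Dmrt1* (-1.08), a sex-determining transcription factor.

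**Figure D2:**
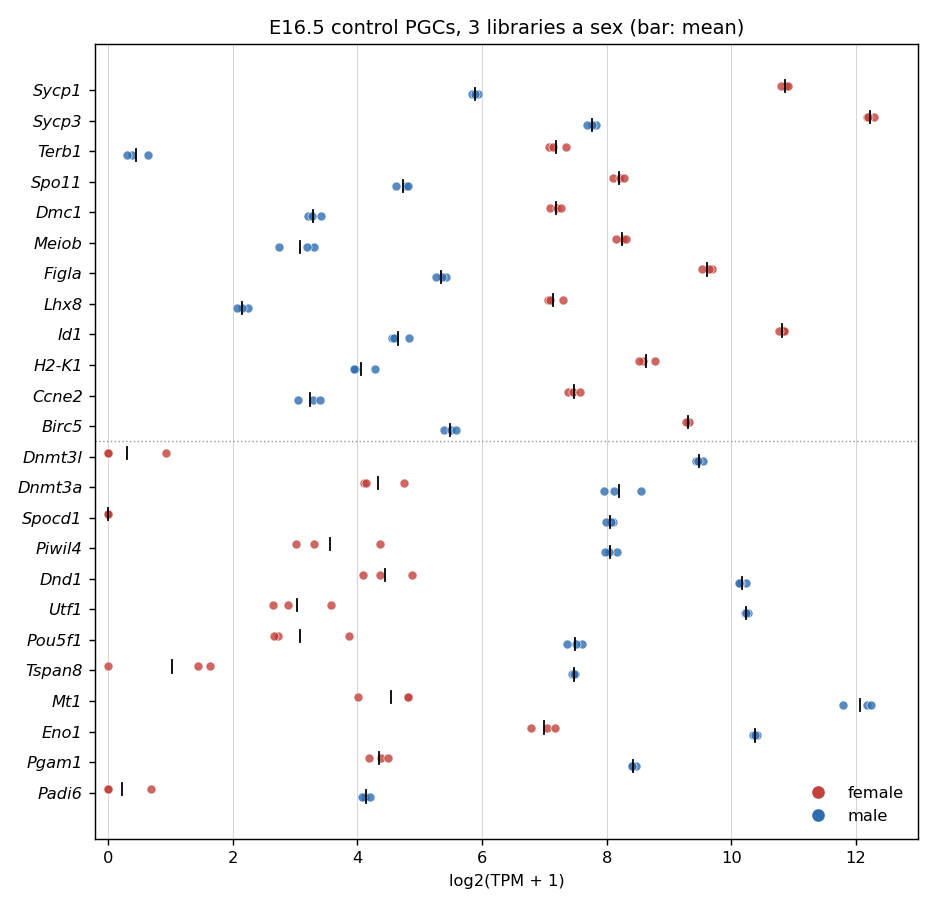
log2(TPM + 1) of 24 genes in each of the 3 female (red) and 3 male (blue) control libraries at E16.5, with a black bar at the mean of each group. The 12 genes above the dotted line were higher in female and the 12 below it higher in male PGCs, and no gene shown has overlapping groups.

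Transcription factors of the early oocyte followed, with 6 of 8 tested members higher in female and 1 in male PGCs. Their median log2 fold change was 2.14, and the shares of all genes were 22.3% and 28.3%. *Lhx8* stood at 132, 156 and 134.7 TPM in female and 3.76, 3.45 and 3.19 TPM in male PGCs (log2 fold change 4.99, SE 0.13, adjusted p = 1.51e-07), *Sohlh2* had 156, 153 and 142 against 6.23, 6.97 and 6.43 TPM (4.33) and *Figla*, which switches on the zona pellucida genes in oocytes, had 823, 795 and 735 against 41.7, 40.3 and 37.4 TPM (4.27). *Nobox* was lower, at 113, 113 and 90.5 TPM in female PGCs against a mean of 14.5 TPM in male PGCs (2.79). No male library reached the female levels of these 4 factors. *Sohlh1* went against its relative *Sohlh2*, at 331, 336 and 291 TPM in female and 443, 431 and 430.5 TPM in male PGCs, a difference below the fold threshold (-0.45). *Obox6* was listed at 0 in the 3 female libraries and at 5.25, 4.20 and 5.42 TPM in the male libraries. The X-linked *Taf7l*, outside the comparison, had 1169, 1108 and 1229.7 TPM in female and 65.1, 63.9 and 58.7 TPM in male PGCs.

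Products made by growing oocytes were called in both directions. Of 20 tested members of the early oocyte list, 5 were higher in female and 8 in male PGCs, with a median log2 fold change of -0.96, beside 22.3% and 28.3% of all genes. Of these members 9 reached 1 TPM in male PGCs alone, among them *Zp2*, *Zp3*, *Padi6* and *H1f8*. Higher in male PGCs were 3 zona pellucida genes, among them *Zp3*, which stood at 1.54, 0.231 and 0.181 TPM in female and 32.5, 36.1 and 32.3 TPM in male PGCs (log2 fold change -4.48, SE 0.31, adjusted p = 7.81e-06), and *Zp2*, which stood at 0.813, 0 and 0.700 TPM in female and 14.4, 11.4 and 15.9 TPM in male PGCs (-3.34). *Padi6*, of the subcortical maternal complex, stood at 0.615, 0 and 0 TPM in female and 16.4, 17.4 and 15.9 TPM in male PGCs (-3.90), and the oocyte linker histone *H1f8* stood at 0, 0.286 and 0 TPM in female and 10.4, 10.4 and 12.4 TPM in male PGCs (-3.47). In these genes all male libraries lay above all female libraries, although the male levels stayed below 40 TPM. Higher in female PGCs was the translation regulator *Cpeb1*, at 230.3, 273 and 279 against 20.6, 19.0 and 19.0 TPM (3.67). *Dppa3*, a maternal factor and the most abundant member, was at 253, 227 and 184 against 492, 350.0 and 422 TPM and below the fold threshold (-0.92).

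Genes of the male germ cell fate were higher in male PGCs in 9 of 12 tested members, with none higher in female PGCs. Their median log2 fold change was -1.50, and 28.3% of all genes were male-high and 22.3% female-high. Of these members 5 reached 1 TPM in male PGCs alone and so could pass the filter in that sex only. *Dnd1*, an RNA-binding partner of NANOS2, stood at 28.3, 16.1 and 19.5 TPM in female and 1208, 1131 and 1116 TPM in male PGCs (log2 fold change -5.73, SE 0.18, adjusted p = 2.83e-07). *Nanos3* stood at 2.60, 0 and 1.28 TPM in female and 41.2, 49.2 and 43.5 TPM in male PGCs (-4.50), and *Nanos2*, the translational repressor that holds the male fate, stood at 0, 0.0608 and 0 TPM in female and 4.33, 7.09 and 4.65 TPM in male PGCs (-2.61). *Nodal*, a ligand of the activin type, was listed at 0 in the 3 female libraries and at 3.44, 1.81 and 2.52 TPM in the male libraries, and the RNA helicase *Ddx25* had 66.3, 64.0 and 70.1 against 208, 202 and 198 TPM (-1.59). The sexes did not overlap in these 5 genes, picked by fold change, beside 74.8% of all genes without overlap. The Nodal pathway was at low level at this stage in both sexes, since *Nodal*, *Lefty1* and *Lefty2* stayed below 4 TPM in all 6 libraries while E13.5 male PGCs held *Lefty2* at 163, 180.0 and 179 TPM.

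Genes of prospermatogonia and spermatogonial stem cells were higher in male PGCs in 11 of 18 members and higher in female PGCs in 3. The shares of all genes were 28.3% and 22.3%, and the median log2 fold change of the list was -1.57. Of these members 8 reached 1 TPM in male PGCs alone and so could pass the filter in that sex only. *Tspan8*, a surface tetraspanin of stem cells, stood at 0, 2.13 and 1.73 TPM in female and 174, 179 and 177 TPM in male PGCs (log2 fold change -6.44, SE 0.39, adjusted p = 4.46e-06). *Sall4* had 3.45, 4.51 and 2.67 against 59.6, 61.1 and 65.2 TPM (-3.81), the neurofilament gene *Nefm* 0, 1.17 and 0.605 against 18.6, 20.8 and 15.5 TPM (-3.66) and *Bcl6b* 0.0801, 0 and 0.674 against 15.8, 12.7 and 14.2 TPM (-3.64). With *Utf1*, these formed the 5 largest differences, none of them overlapping between the sexes, beside 74.8% of all genes without overlap. The members higher in female PGCs, named after their values were seen, were *Id4* (2.90), *Cdh1* (1.86) and *Pou3f1* (1.67), the last not called without male library 1, 2 or 3 (1.61, 1.70 and 1.69).

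Genes of de novo DNA methylation were higher in male PGCs in 4 of 6 members and higher in female PGCs in 1. Their median log2 fold change was -2.66, and the shares of all genes were 28.3% and 22.3%. Of these members 2 reached 1 TPM in male PGCs alone and so could pass the filter in that sex only. Besides *Dnmt3l*, *Dnmt3a*, the main de novo methyltransferase, stood at 26.0, 16.3 and 16.7 TPM in female and 248, 275 and 373 TPM in male PGCs (log2 fold change -3.87, SE 0.21, adjusted p = 2.70e-06). *Dnmt3c*, which methylates young transposons, stood at 0.777, 0.145 and 1.08 TPM in female and 29.0, 27.3 and 25.4 TPM in male PGCs (-4.13), and *Dnmt3b* had 2.57, 6.27 and 4.12 against 13.3, 12.1 and 13.6 TPM (-1.46). All male libraries exceeded all female libraries for the 4 genes, although *Dnmt3b* was not called without male library 1, 2 or 3 (-1.44, -1.501 and -1.43). The histone methyltransferase *Setd2* was higher in female PGCs (1.32), and *Nsd1* was at 33.3, 28.4 and 32.0 against 34.0, 28.2 and 28.2 TPM. Of 6 tested genes of maintenance methylation and demethylation, *Uhrf1*, which recruits DNMT1 to replicating DNA, was the only call, at 83.6, 116 and 115 against 10.3, 10.2 and 10.9 TPM (3.19). *Dnmt1* itself was at 25.2, 26.6 and 32.6 against 39.1, 44.4 and 39.9 TPM (-0.54).

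In the piRNA pathway 9 of 27 members were higher in male PGCs, 4 higher in female PGCs and 14 not called, with a median log2 fold change of -0.31, beside 28.3% and 22.3% of all genes. The male-high members included genes of nuclear silencing. *Piwil4*, the nuclear PIWI protein, stood at 7.07, 19.7 and 8.94 TPM in female and 285, 260.3 and 249 TPM in male PGCs (log2 fold change -4.49, SE 0.31, adjusted p = 8.48e-06), and *Morc1*, a transposon repressor, stood at 9.96, 9.50 and 18.7 TPM in female and 178, 189 and 186 TPM in male PGCs (-3.82). *Gtsf1*, a PIWI cofactor, had the higher level at 339, 299 and 280.5 against 1488, 1301 and 1327 TPM (-2.16), and *Pnldc1*, which trims piRNA ends, had 29.0, 32.2 and 29.6 against 139, 127 and 130.1 TPM (-2.09). With *Spocd1*, these were the 5 largest differences, and none overlapped between the sexes, beside 74.8% of all genes without overlap. The most abundant member, the chaperone *Fkbp6*, stood at 1684, 1514 and 1544 against 3248, 3298 and 3307 TPM (-1.06). The 4 members higher in female PGCs were *Btbd18* (1.78), *Mybl1* (1.75), *Tex15* (1.17) and *Rnf17* (1.03), of which the last lay close to the fold threshold.

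Pluripotency genes were higher in male PGCs in 12 of 20 members and higher in female PGCs in 1 (median log2 fold change -1.47). The shares of all genes were 28.3% and 22.3%. Of these members 8 reached 1 TPM in male PGCs alone and so could pass the filter in that sex only. *Pou5f1*, whose reporter was used for the sort, stood at 13.6, 5.64 and 5.34 TPM in female and 194, 181 and 163 TPM in male PGCs (log2 fold change -4.40, SE 0.30, adjusted p = 7.85e-06). *Dppa4* stood at 60.8, 53.0 and 49.2 TPM in female and 1067, 1014 and 999 TPM in male PGCs (log2 fold change -4.22, SE 0.088, adjusted p = 1.07e-07), and the germ cell repressor *Prdm1* stood at 0.0951, 0.758 and 0.132 TPM in female and 6.10, 5.47 and 5.78 TPM in male PGCs (-2.39). With *Utf1* and *Sall4*, these had the largest differences. *Nanog*, a core pluripotency factor, had 85.0, 75.3 and 85.0 TPM in the E12.5 libraries, 0.494, 0 and 0 TPM in E16.5 female and 1.79, 1.81 and 2.65 TPM in E16.5 male PGCs. *Pou5f1* had 193, 148 and 186 TPM at E12.5, a range that overlapped its E16.5 male levels. The member higher in female PGCs was the receptor *Kit* (1.4995), which also belongs to the early oocyte list.

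Cell cycle genes were called in both directions. Of 26 genes of DNA replication and mitosis, 11 were higher in female and 4 in male PGCs (median log2 fold change 0.55), beside 22.3% and 28.3% of all genes. *Birc5*, of the chromosomal passenger complex, stood at 634, 639 and 621 TPM in female and 40.9, 44.3 and 47.0 TPM in male PGCs (log2 fold change 3.81, SE 0.075, adjusted p = 8.37e-08). *Ccnb2*, a B-type cyclin, stood at 725, 683 and 667 TPM in female and 84.1, 75.6 and 85.2 TPM in male PGCs (log2 fold change 3.07, SE 0.074, adjusted p = 1.41e-07). *Cdk1* (2.86), the ribonucleotide reductase subunit *Rrm2* (3.15) and *Gins2* (2.50) followed. The members higher in male PGCs, named after their values were seen, were *Ccnb1* (21.6, 18.4 and 24.3 against 110.3, 96.3 and 100.9 TPM in female and male PGCs, -2.21), *Mcm7* (-1.99), *Aurkb* (-1.66) and *Cdt1* (-1.17). The *Aurkb* call was lost without male library 1, 2 or 3 (-1.63, -1.68 and -1.69), and that of *Cdt1* without female library 1 (-0.94). The B-type cyclins thus stood on opposite sides. *Mki67*, a proliferation marker, was among the female-high members at 9.41, 10.4 and 10.9 TPM in female and 2.11, 1.03 and 1.71 TPM in male PGCs (2.12). These are transcript levels, and the arrest named for male germ cells at this stage was not measured.

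Among G1 cyclins and kinases, 4 of 13 members were higher in female and 2 in male PGCs (median log2 fold change 0.78), beside 22.3% and 28.3% of all genes. *Ccne2*, a partner of CDK2, stood at 164.7, 175 and 189.8 TPM in female and 7.30, 8.83 and 9.55 TPM in male PGCs (log2 fold change 4.22, SE 0.13, adjusted p = 2.49e-07), and *Ccne1* (2.15), *Cdk2* (1.61) and the phosphatase *Cdc25a* (1.22) were also higher in female PGCs. *Cdk4* (140.0, 109 and 129.8 against 401, 394 and 374 TPM, -1.62) and its cyclin *Ccnd3* (44.8, 48.2 and 47.8 against 116, 119 and 113 TPM, -1.29) were higher in male PGCs. The other D-type cyclins were not called, with log2 fold changes of 0.78 for *Ccnd1* and -0.92 for *Ccnd2*. Median-of-ratios scaling ended the *Cdc25a* call (0.95) and gave one for *Ccnd2* (-1.17), quantile normalization did the same and also called *Ccnd1* (0.90, -1.09 and 1.12), and the *Cdc25a* call was lost with FPKM too. Of 10 inhibitors of these kinases and pocket proteins, 4 were higher in female PGCs, namely *Rbl1* (2.97), *Cdkn2d* (2.03), *Cdkn2c* (1.78) and *Rb1* (1.64), and 2 in male PGCs, namely *Cdkn2b* (5.50, 4.30 and 11.8 against 28.2, 29.8 and 20.6 TPM, -1.82) and *Cdkn1b* (0.733, 1.54 and 0.349 against 4.18, 3.54 and 2.78 TPM, -1.30). The *Cdkn1b* call was lost without any library but female library 2 (-1.09 to -1.42) and that of *Cdkn2b* without male library 1 or 2 (-1.76 and -1.72). The median over the inhibitor list was 0.43, and its counts stand beside the same shares of all genes (22.3% and 28.3%). The most abundant inhibitor, *Cdkn1c*, was at 319, 497 and 462 TPM in female and 314, 313 and 338 TPM in male PGCs and was not called.

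**Figure D3:**
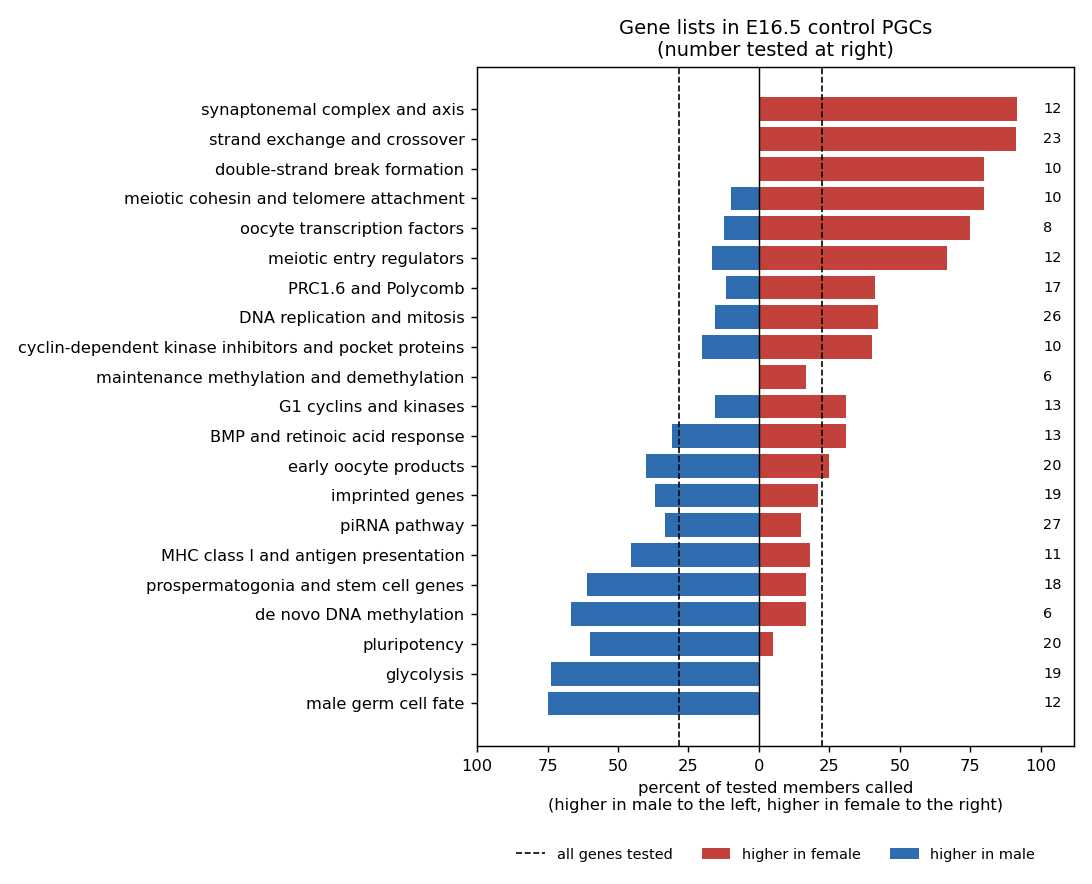
Percentage of the tested members of 21 gene lists that were called higher in female (red, to the right) or higher in male PGCs (blue, to the left) at E16.5, with the number tested at the right. Dashed lines mark the shares of all tested genes (22.3% and 28.3%), and the 6 meiosis and oocyte factor lists lie at the top with 66.7% to 91.7% higher in female PGCs.

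Components of Polycomb repressive complex 1.6 and related subunits, which hold back germline genes, were higher in female PGCs in 7 of 17 members and higher in male PGCs in 2 (median log2 fold change 0.71). Over all genes the shares were 22.3% and 28.3%. *Rnf2*, the ubiquitin ligase subunit, had 80.6, 75.5 and 71.1 against 21.1, 15.6 and 17.8 TPM (2.01), *Hdac1* 284, 283 and 275 against 71.5, 69.8 and 65.7 TPM (2.01) and *Pcgf6* 159, 151 and 170.1 against 54.8, 47.4 and 44.8 TPM (1.69). The members higher in male PGCs were the DNA-binding subunit *E2f6* (14.8, 15.1 and 14.0 against 85.9, 90.8 and 77.7 TPM, -2.45) and the H3K27 methylation reader *Eed* (70.6, 77.4 and 83.5 against 252, 248 and 253 TPM, -1.69). Subunits of the complex therefore did not move as a block.

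Targets of BMP and retinoic acid, the signals that act on female germ cells, gave 4 of 13 members higher in each sex. Of all genes, 22.3% were higher in female and 28.3% in male PGCs, so these counts were near those shares. The female-high members were all BMP targets, although *Msx2*, another BMP target, was male-high (-1.64). *Id3* stood at 745, 782 and 714 TPM in female and 17.6, 16.0 and 13.7 TPM in male PGCs (log2 fold change 5.49, SE 0.10, adjusted p = 7.45e-08), *Id2* had 263, 222 and 219.9 against 14.7, 12.6 and 9.21 TPM (4.18) and the homeobox gene *Msx1* 15.7, 13.3 and 16.6 against 1.09, 0.536 and 0.420 TPM (3.28). Male-high members with the largest differences follow. *Crabp1*, a cellular retinoic acid-binding protein, stood at 38.5, 26.2 and 23.9 TPM in female and 332, 367 and 381 TPM in male PGCs (log2 fold change -3.59, SE 0.17, adjusted p = 1.35e-06), and the receptor gene *Rarb* was listed at 0 in the 3 female libraries and at 4.83, 4.22 and 4.78 TPM in the male libraries (adjusted p = 1.58e-05). At E13.5 *Crabp1* was higher in female PGCs, at 191, 234 and 282 against 76.8, 59.0 and 82.8 TPM. *Msx2*, a male-high member named after its values were seen (-1.64), was called in the absence of a library only without female library 1 (-2.16). The median over the list was -0.67.

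Glycolysis genes lay mostly on the male side. Of 19 tested members, 14 were higher in male PGCs and none higher in female PGCs, with a median log2 fold change of -1.93. The shares of all genes were 28.3% and 22.3%. Of these members 3 reached 1 TPM in male PGCs alone and so could pass the filter in that sex only. *Eno1*, enolase, stood at 131, 143 and 109 TPM in female and 1353, 1302 and 1331 TPM in male PGCs (log2 fold change -3.38, SE 0.098, adjusted p = 2.39e-07). *Pgam1*, phosphoglycerate mutase, stood at 17.2, 19.9 and 21.4 TPM in female and 337, 352 and 339 TPM in male PGCs (log2 fold change -4.07, SE 0.099, adjusted p = 1.41e-07). *Aldoc*, a brain-type aldolase, stood at 1.47, 2.26 and 0 TPM in female and 62.2, 71.2 and 74.9 TPM in male PGCs (-5.13), the glucose transporter *Slc2a3* had 1.92, 3.54 and 1.59 against 48.4, 42.1 and 45.7 TPM (-3.83) and the hexokinase *Hk1* 1.19, 2.05 and 0.422 against 20.6, 20.6 and 22.2 TPM (-3.39). Female and male libraries were apart in all 5 genes, picked by fold change, as they were in 74.8% of all genes. *Pkm*, pyruvate kinase, was the most abundant member, at 311, 376 and 337 against 1579, 1641 and 1639.6 TPM. At E12.5, before the sexes were separated, *Eno1* stood at 1826, 1842 and 1809 TPM and *Pkm* at 2169, 1953 and 2114 TPM, so all E16.5 libraries were below all E12.5 libraries and the female libraries were lowest. The Sertoli cell marker sum was also higher in male libraries, as given above, and its part in these levels was not tested.

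Antigen presentation genes were divided between the class I molecules and their helpers. Of 11 tested members, 2 were higher in female and 5 in male PGCs (median log2 fold change -0.97), beside 22.3% and 28.3% of all genes. Of these members 3 reached 1 TPM in male PGCs alone. The class I heavy chain *H2-K1* stood at 381, 365 and 438 TPM in female and 14.6, 18.4 and 14.5 TPM in male PGCs (log2 fold change 4.56, SE 0.12, adjusted p = 1.91e-07), and *H2-D1* stood at 646, 661 and 760.3 TPM in female and 68.3, 65.3 and 70.2 TPM in male PGCs (log2 fold change 3.32, SE 0.082, adjusted p = 1.44e-07). These are related class I genes with similar sequence, so the split of reads between them is uncertain. The peptide transporter genes *Tap1* and *Tap2* were higher in male PGCs, at 0.0831, 1.22 and 2.93 against 6.13, 7.13 and 4.55 TPM (-1.70) and 0, 0.880 and 0.251 against 5.21, 5.40 and 6.52 TPM (-2.33), as was the class I transactivator *Nlrc5*, at 0.0334, 0.147 and 0 against 2.69, 1.77 and 1.94 TPM (-1.55). *Tap1* passed the test without female library 3 (-2.14) but not without each of the other libraries (-1.21 to -1.85), and without male library 1, 2 or 3 only 3 members stayed male-high. *B2m*, the light chain, was at 77.6, 79.4 and 89.6 against 149.9, 127 and 123 TPM and below the fold threshold (-0.69).

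Imprinted genes were higher in female PGCs in 4 of 19 tested members and in male PGCs in 7 (median log2 fold change -0.14). *Snrpn*, a splicing protein gene, had 57.4, 59.1 and 65.8 against 5.71, 7.19 and 8.05 TPM (2.96), and the growth factor receptor *Igf2r* 13.4, 19.5 and 15.0 against 3.46, 3.34 and 3.82 TPM (1.89). On the male side were *Phlda2* (17.4, 8.38 and 6.81 against 71.4, 77.6 and 68.3 TPM, -2.73), the noncoding *Meg3* (0.914, 0.838 and 0.546 against 10.9, 9.92 and 7.89 TPM, -2.58) and *Nnat* (23.4, 34.4 and 29.7 against 88.7, 107 and 92.1 TPM, -1.70). These shares were near those of all genes (22.3% and 28.3%).

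The comparison was repeated in libraries of IUHG fetuses at E16.5, which share no sample with the controls. There 4289 genes (20.3%) were higher in female and 5786 (27.3%) in male PGCs. Of the control DEGs, 3586 (75.8%) of the female-high and 4559 (76.1%) of the male-high genes were called in the same direction, and 97.4% and 98.8% had the same sign, beside 44.0% and 55.4% of all genes with that sign. Only 6 genes were called in opposite directions, all of them female-high in controls. In those libraries 11 of 12 synaptonemal complex genes were higher in female and 13 of 19 glycolysis genes higher in male PGCs. Other list counts differed from those of the controls. Oocyte transcription factors higher in female PGCs went from 6 in controls to 4 in IUHG libraries, and interstitial markers from 1 to 4. Male-high members went from 8 to 11 for early oocyte products, from 11 to 8 for prospermatogonia, from 9 to 6 for Sertoli and from 4 to 0 for blood markers, and these differences between lists were not tested. *Inca1* had 849, 857 and 809 TPM in IUHG female and 7.55, 5.44 and 3.28 TPM in IUHG male PGCs, and *Dnmt3l* was listed at 0 in the IUHG female libraries and 715, 722 and 734 TPM in the IUHG male libraries.

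The sex difference itself was tested for a change with IUHG, and 255 genes (1.2%) passed at an adjusted p under 0.01. In 192 of them female minus male was larger in controls and in 63 it was smaller. The count depended on the libraries, at 95 to 129 without 1 male library of either treatment except IUHG male library 2, where it was 83, and at 171 without IUHG female library 3. Oocyte factors were among the first kind. *Nobox* stood at 113, 113 and 90.5 TPM in control and 11.0, 18.4 and 16.8 TPM in IUHG female PGCs, while the male means were 14.5 TPM in control and 13.3 TPM in IUHG PGCs (interaction 2.62 on the log2 scale, SE 0.27, adjusted p = 4.64e-04 by limma). *Lhx8* and *Figla* had interactions of 1.5996 (adjusted p = 0.00103) and 1.10 (adjusted p = 0.00330), with *Lhx8* at 41.1, 42.3 and 40.2 TPM and *Figla* at 339, 317 and 308 TPM in IUHG female PGCs. *Sohlh1* was at 39.8, 40.5 and 29.4 TPM in IUHG female and 406, 405 and 419 TPM in IUHG male PGCs, so a gene below the fold threshold in controls was male-high in IUHG fetuses (interaction 3.02, adjusted p = 2.37e-06). In these 4 factors all IUHG female libraries were below all control female libraries. The synaptonemal complex genes *Sycp1* and *Sycp3* did not pass the interaction test (adjusted p = 0.605 and 0.301).

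At E13.5, in other control libraries, the sexes differed in fewer of the same genes, with 2531 (12%) higher in female and 1096 (5.18%) higher in male PGCs. These genes had passed the filter at E16.5, 5137 of them in E16.5 male PGCs alone, and genes expressed at E13.5 alone were left out. The part of this filter in the smaller E13.5 counts was not tested. Of the E16.5 female-high DEGs, 1276 (27.0%) were already called at E13.5 and 74 were called in the opposite direction, and 79.0% had the same sign, beside 56.5% of all genes. Of the E16.5 male-high DEGs, 579 (9.66%) were already called and 349 (5.83%) were called in the opposite direction, and 49.9% had the same sign, beside 38.9% of all genes. The libraries did not overlap at E13.5 in 53.2% of genes. With median-of-ratios scaling the E13.5 split was 1654 higher in female and 1729 higher in male PGCs. It was 1885 and 1021 with FPKM, 2872 and 1222 with a pseudocount of 0.1, and 2349 and 937 with a filter of 5 TPM. Without E13.5 male library 1, 2 or 3 the male-high count was 728, 701 and 689. The difference between the stages was not tested. Meiosis lists were mostly on the female side at both stages, with 10 of 12 synaptonemal complex genes, 10 of 10 double-strand break genes and 18 of 23 strand exchange genes higher in female PGCs at E13.5. *Sycp1*, for example, had 304, 269 and 319 TPM in E13.5 female and 58.5, 64.2 and 65.0 TPM in E13.5 male PGCs, so its female level at E16.5 was above all E13.5 libraries. Of the genes of de novo methylation and of glycolysis, 1 of 6 and 5 of 19 were higher in male PGCs at E13.5, against 4 and 14 at E16.5. *Dnmt3l* was at 0.860, 0.851 and 0.672 TPM in E13.5 male PGCs. The piRNA list had 11 of 27 members higher in female and 2 higher in male PGCs at E13.5, where the E16.5 counts were 4 and 9. The BMP and retinoic acid list had 9 of 13 members higher in female PGCs at E13.5 and none higher in male PGCs. The male fate list had median log2 fold changes of -2.79 at E13.5 and -1.50 at E16.5, and *Nanos2* was 28.2, 31.9 and 31.3 TPM in E13.5 male against 4.33, 7.09 and 4.65 TPM in E16.5 male PGCs.

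**Figure D4:**
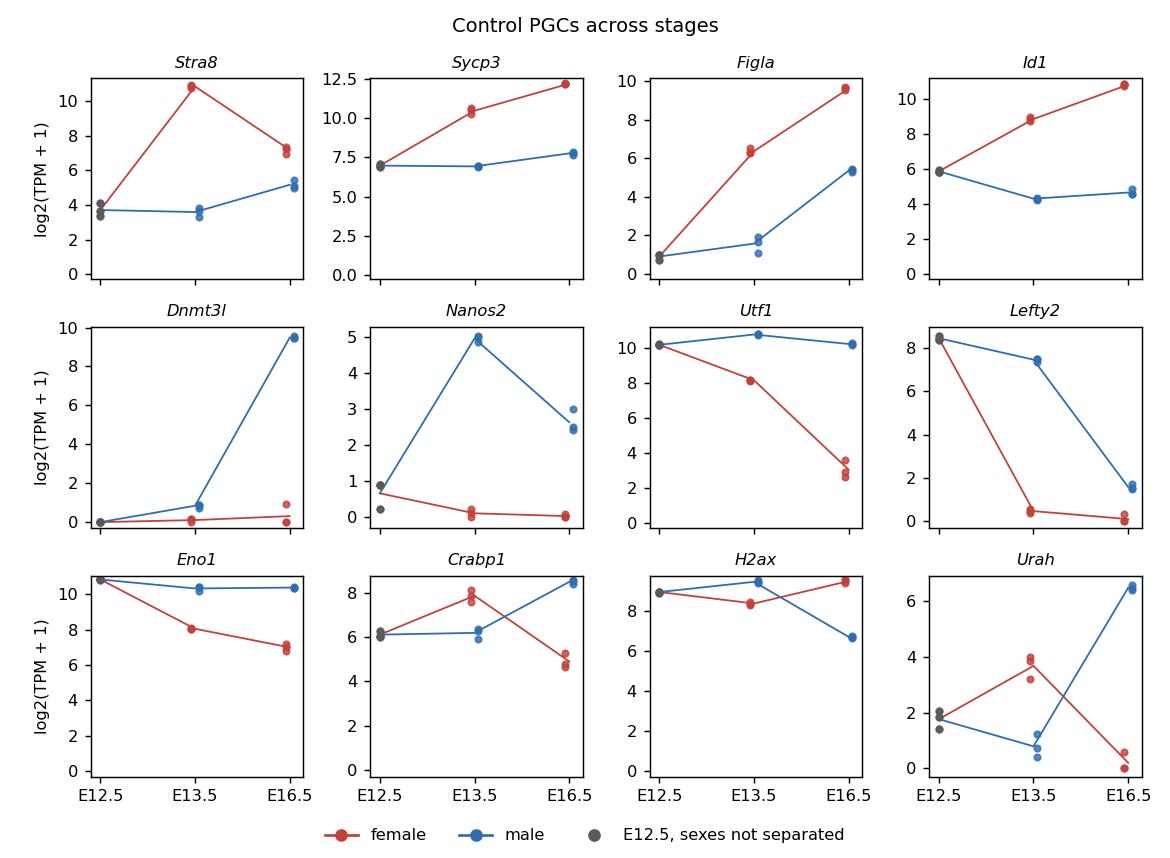
log2(TPM + 1) of 12 genes in control libraries at E12.5 (grey, sexes not separated), E13.5 and E16.5, with female PGCs in red, male PGCs in blue and lines through the group means. *Sycp3*, *Figla* and *Id1* are above the male values at both later stages, *Dnmt3l* is high in E16.5 male PGCs alone, and *H2ax* and *Urah* cross between E13.5 and E16.5.

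Some genes were called in opposite directions at the 2 stages. Without overlap at either stage and with at least 10 TPM in the higher sex at both, 211 genes did so, of which 58 were higher in female and 153 in male PGCs at E16.5. *H2ax*, the histone variant phosphorylated at double-strand breaks, was male-high at the earlier stage, with 320.1, 325 and 350.2 TPM in female and 668, 709.5 and 740.1 TPM in male PGCs, and at E16.5 stood at 672, 788 and 718 TPM in female and 99.7, 107 and 103 TPM in male PGCs (log2 fold change 2.80, SE 0.077, adjusted p = 2.02e-07). *Znhit2* (3.70), the replication-dependent histone gene *H2ac20* (3.17), *Apbb3* (2.82) and *Znrd2* (2.72) were also male-high at E13.5 and female-high at E16.5. *Urah*, an enzyme of urate breakdown, went the other way, with 13.52, 8.16 and 14.9 TPM in E13.5 female and 0.647, 0.316 and 1.38 TPM in E13.5 male PGCs beside 0, 0.508 and 0 TPM in E16.5 female and 87.5, 83.1 and 95.6 TPM in E16.5 male PGCs. *Aldoc* (-5.13), the zinc transporter *Slc39a4* (-4.60), the phosphatase *Ptpn6* (-4.47) and *Pdlim4* (-4.45) were likewise female-high at E13.5 and male-high at E16.5. These values are log2 fold changes at E16.5, and their E13.5 values had the other sign.

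Promoters were then compared by their RefSeq sequence (GRCm38.p6), which was found for 12958 of the tested genes, over a 300-base window of 250 bases before and 50 after the start. The observed over expected CpG ratio had a median of 0.814 in genes higher in female, 0.490 in genes higher in male and 0.744 in genes not called, against 0.716 over all matched genes. A ratio of at least 0.6 was found in 80.0%, 40.6% and 67.3%, in that order. Much of this difference went with low expression in 1 sex. Among genes with at least 5 TPM in both sexes the medians were 0.840, 0.752 and 0.823. Male-high genes that reached 1 TPM in male PGCs alone had a median of 0.312. Shares are descriptions across genes and were not tested.

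**Figure D5:**
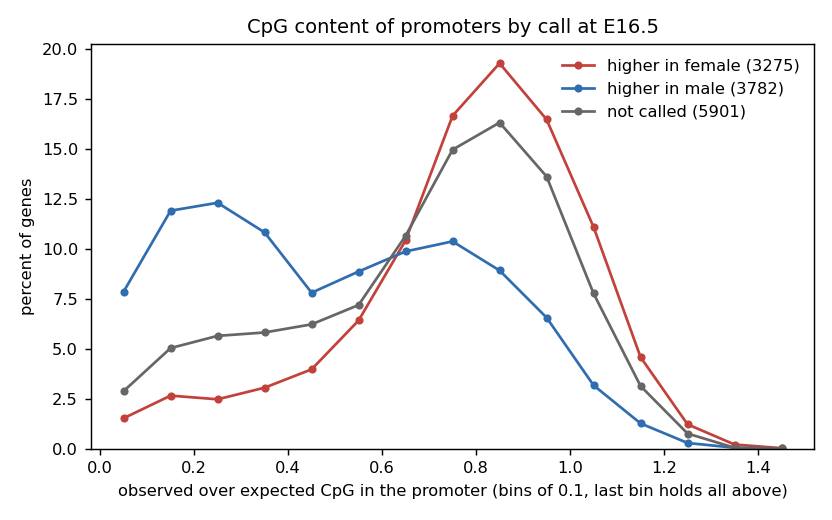
Distribution of the observed over expected CpG ratio of the 300-base promoter (horizontal axis, bins of 0.1, the last bin open) as a percentage of genes (vertical axis) for 3275 genes higher in female, 3782 higher in male and 5901 not called. Female-high genes peak near a ratio of 0.85, while male-high genes form a broad distribution, highest near 0.25 with a lower peak in the bin from 0.7.

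Short motifs were counted on both strands of the same window. CCGGAAG, a core bound by ETS factors, was present in 23.8% of female-high, 7.62% of male-high and 16.6% of not called promoters (15.8% of all matched), and in 26.8%, 16.7% and 23.5% with at least 5 TPM in both sexes. TCCCGC, a core bound by E2F factors, was present in 38.1%, 25.0% and 34.1% (32.5% of all matched), and TATAAA in 6.81%, 11.6% and 7.83% (8.67%). With at least 5 TPM in both sexes these shares were close, at 38.3%, 37.4% and 38.5% for TCCCGC and 5.73%, 6.59% and 6.23% for TATAAA. The E-box CACGTG was present in 10.4%, 8.51% and 9.69% (9.52%). CNCCTCAG, a motif linked to STRA8, was present in 10.1%, 8.99% and 9.20% (9.36%), and TGCACNC in 12.3%, 13.46% and 13.0% (13.0%). CCGGAAG holds CG, as do TCCCGC and CACGTG, so their shares go with CpG content, and no motif searched contains another. Within the bases printed above, *Terb1* held CCGGAAG once and TCCCGC at 2 places, and *Sycp1* held CACGTG once. *Sycp3* held CACGTG at 2 places and TCCCGC once, *Inca1* held CNCCTCAG at 2 places and TGCACNC once, and *Gm13269* held TATAAA. Among the male-high examples, *Mt1* held TCCCGC once, and TGCACNC was present in *Mt1*, *Pcp4* and *Utf1*. In the synaptonemal complex list, 5 of 12 promoters held CACGTG and 4 held CNCCTCAG. The other meiosis lists held fewer of both. In the same order, the counts were 1 and 2 of 8 promoters for cohesin and telomere genes and 1 and 0 of 9 for double-strand break formation. They were 2 and 2 of 16 for strand exchange and 2 and 2 of 8 for meiotic entry. A match is a description of the letters, not a binding site.

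By transcript class of the matched annotation, 25.3% of 14522 protein-coding genes were higher in female and 29.5% in male PGCs. Long noncoding RNAs (1704) leaned to the male side, with 18.8% and 33.2%, as did 1600 pseudogenes, with 9.69% and 26.2%. Small nucleolar RNAs (114) leaned the other way, with 16.7% and 2.63%. Over all genes the shares were 22.3% and 28.3%. The male-high share of pseudogenes and the female-high share of small nucleolar RNAs were thus below those of all genes. On the X chromosome, outside the autosomal comparison, 310 of 836 genes (37.1%) were higher in female and 173 (20.7%) in male PGCs in a fit of all chromosomes, with a median log2 fold change of 0.60.

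Genes that share a symbol stem, grouped after the values were seen, gave a view beyond the lists and were not tested. Their counts stand beside 28.3% of all genes higher in male and 22.3% higher in female PGCs. Of 104 stems with at least 15 tested genes, the keratins were most often male-high, with 42 of 45 higher in male and none in female PGCs. Of them, 36 reached 1 TPM in male PGCs alone, and their median level there was 5.42 TPM. *Krt18*, an epithelial keratin, stood far above that median, at 6.94, 19.8 and 6.88 against 181, 186 and 179 TPM in female and male PGCs. The highest female mean among the keratins was 46.1 TPM. Kallikreins followed with 19 of 23 higher in male PGCs, for example *Klk8* at 0, 3.82 and 0.425 against 33.9, 37.4 and 41.5 TPM. Cytochrome P450 genes had 33 of 48, sulfotransferases 10 of 15, serine proteases (*Prss*) 18 of 30 and collagens 20 of 37 higher in male PGCs. Those counts rest largely on genes that passed the filter through the male libraries, since 20 of the kallikreins, 33 of the P450 genes, 10 of the sulfotransferases, 19 of the *Prss* genes and 21 of the collagens reached 1 TPM in male PGCs alone. In the IUHG libraries 39 keratins and 17 kallikreins were higher in male PGCs. The stems most often female-high were intraflagellar transport (*Ift*), with 12 of 19, the methyltransferase-like *Mettl* genes, with 14 of 23, and the trafficking *Trappc* genes, with 9 of 15. The somatic marker sums given above were higher in the same male libraries, and their part in the keratin, kallikrein and collagen levels was not tested.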

How the data were processed

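PGC libraries were made with a full-length single-cell amplification kit from pooled sorted cells. According to the study's methods, reads were trimmed with Trim Galore, aligned with STAR to mm39 keeping uniquely mapped reads, and counted with featureCounts before DESeq2, without versions in the sources used here. The deposited tables list coverage, FPKM and TPM per gene as the authors computed them. How these columns were made for PGCs is not given in the sources used here. TPM rows were summed per gene ID, genes kept at a mean of at least 1 TPM in either sex, and log2(TPM + 1) fitted with limma 3.58.1 (lmFit, eBayes with trend, two-sided) in R 4.3.3, with Benjamini-Hochberg adjustment over all 21175 genes. The thresholds for DEGs were 0.01 for the adjusted p and 1 for the size of the log2 fold change, and for interactions 0.01 for the adjusted p. Summaries used Python 3.11.15, numpy 2.4.6 and pandas 2.3.3. The fit was tested on simulated data.

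The members and lists were chosen with earlier results of these data known. Named genes were the 10 DEGs per direction with the largest fold change at 10 TPM or above without overlap, up to 5 members per list by fold change and its most abundant member, and 5 genes per direction called oppositely at E13.5 and E16.5. Others are members that completed a count or were looked up after their values were seen. Depth was read as aligned bases, so counting error per gene is unknown. Alternatives were FPKM, other pseudocounts, filters, scalings and thresholds, a replicate block, and each library left out. A list member is not reported here.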

Additional observations from a re-analysis of the deposited data

Results flagged for a closer look

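The sex difference at E16.5 differed between control and IUHG libraries for 19 of the genes examined, by limma's interaction test (adjusted p under 0.01). Values are the control difference minus the IUHG difference, each female minus male, on the log2(TPM + 1) scale. Positive values were found in the oocyte genes *Dppa3* (4.85), *Sohlh1* (3.02), *Nobox* (2.62), *Kit* (2.09), *Lhx8* (1.5996) and *Figla* (1.10). *Dppa3* stood at 253, 227 and 184 TPM in control and 14.5, 2.53 and 9.81 TPM in IUHG female PGCs, against 492, 350.0 and 422 TPM in control and 501, 448 and 427 TPM in IUHG male PGCs. *Kit* stood at 48.1, 53.2 and 45.1 TPM in control and 19.2, 7.91 and 14.3 TPM in IUHG female PGCs, against 19.5, 15.1 and 15.5 and 21.2, 20.5 and 18.7 TPM in male PGCs. In both genes the female libraries of the treatments did not overlap.

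Genes of the piRNA pathway and other germ cell genes whose female level was below the male level in controls stood further apart in IUHG libraries, namely *Tdrd1* (1.45), *Tdrd9* (1.23), *Piwil2* (1.07), *Gtsf1* (0.84), *Dnd1* (1.44), *Dppa4* (0.91) and the retinoic acid-binding gene *Crabp2* (1.48). *Tdrd1*, for example, had 30.6, 39.9 and 34.7 TPM in control and 16.2, 13.0 and 13.7 TPM in IUHG female PGCs. The female-high *Gm13269* (1.81) and the male-high *Pdlim4* (2.16) also had positive values. The meiotic genes *Stag3* (-0.68) and *Zcwpw1* (-0.48) and the class I gene *H2-D1* (-1.12) had negative values, that is, a larger female excess in IUHG libraries, with *H2-D1* at 646, 661 and 760.3 TPM in control and 1169.8, 1192 and 1194 TPM in IUHG female PGCs. *Urah* had -2.75, with 0, 0.508 and 0 TPM in control and 9.90, 5.13 and 6.43 TPM in IUHG female PGCs.

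The genes called in opposite directions at the stages were chosen for libraries of the sexes that did not overlap at either stage. By that rule every library of a sex lay on one side at E13.5 and on the other at E16.5. The difference between stages was not tested in these genes. Their log2 fold changes at E13.5 were -2.90 for *Znrd2*, -1.56 for *H2ac20*, -1.55 for *Apbb3*, -1.496 for *Znhit2* and -1.09 for *H2ax*, which were female-high at E16.5. They were 2.89 for *Urah*, 1.97 for *Slc39a4*, 1.42 for *Aldoc*, 1.19 for *Ptpn6* and 1.10 for *Pdlim4*, which were male-high at E16.5. Groups of 3 libraries were not tested for outlying samples.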

How the results depend on the processing

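In controls at E16.5 the number of DEGs moved with the filter and the fold threshold. Requiring 1 TPM in both sexes gave 3914 female-high and 2514 male-high genes (6428 in all), a filter of 5 TPM gave 4161 and 3631, and a log2 fold change over 2 gave 1866 and 2508 (4374 in all). In IUHG libraries the filter of 5 TPM left 3613 male-high genes. Leaving out 1 library at a time gave 4149 to 4900 female-high and 5065 to 5718 male-high genes in controls at E16.5, 1726 to 2504 and 689 to 964 at E13.5, and for the interaction 71 to 239, 12 to 86 and 83 to 315 in all. Median-of-ratios scaling gave 1654 and 1729 at E13.5. In the lists that scaling gave 2 female-high piRNA genes, 4 female-high PRC1.6 and Polycomb genes, 1 female-high pan-germ gene, 1 male-high pregranulosa and 2 male-high endothelial genes. Without 1 library, the male-high counts ranged over 1 to 2 for meiotic entry, 0 to 1 for cohesin and telomere, 0 to 1 for maintenance methylation, 0 to 2 for kinase inhibitors, 3 to 5 for antigen presentation, 0 to 1 for pregranulosa, 0 to 2 for endothelial, 2 to 5 for interstitial and 2 to 4 for blood markers, and the female-high counts over 1 to 2 for maintenance methylation, interstitial, endothelial and blood markers.

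Of 177 genes named and tested, 2 reversed sign, both near equality. *Sycp2l* went to -0.013 with FPKM, -0.090 with median-of-ratios scaling and -0.016 with a pseudocount of 0.1, and ranged from -0.29 to 0.22 without 1 library. *Nsd1* went to -0.12 with FPKM, -0.22 with median-of-ratios scaling and -0.33 with quantile normalization. The replicate numbers did not pair the samples by deviations from the group means, whose correlations between libraries of the same number lay between -0.045 and 0.061 over 15 pairs (female against male in E16.5 controls, E16.5 IUHG and E13.5 controls, and control against IUHG in each sex at E16.5). A replicate block gave 4660 female-high and 5747 male-high genes in controls at E16.5, 1060 and 413 (1473 in all) at E13.5, and 121 and 28 (149 in all) for the interaction. The cause of these changes was not tested. Genes near 0 TPM in 1 sex were limited by depth, since their counts are unknown.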
